A study of Mus musculus with 10 samples.

Results

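Messenger RNA levels of the urea cycle and glutamine enzymes were examined in mouse liver by RNA-seq. The group holds 8 genes, taken by symbol and not by any measured value, of the 41388 genes listed in the deposited tables. They are Nags, Cps1 and Otc of the mitochondrial part of the urea cycle, Ass1, Asl and Arg1 of its cytosolic part, and Glul and Gls2, which make and break down glutamine. All 8 were detected in each of 10 libraries, and all passed the filter on low values used for testing.

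The 10 libraries, each from 1 labelled liver sample, fall into a WT Refed group (n = 2), a WT Fasting group (n = 3) and a NAMPT LKO Fasting group (n = 5). All were C57B/6J mice of 12 weeks. WT mice were littermates with both Nampt alleles floxed and intact, and NAMPT LKO mice carried the same floxed alleles with a germ-line Albumin-cre transgene, which deletes Nampt in hepatocytes. Fasting mice went 24 h without food on aspen bedding, and WT Refed mice were given food for 2 h after 22 h of fasting, so all 3 groups had been fasted. The refed group is therefore not a continuously fed control according to the labels, although the study's text describes a shorter fast and fed controls. RNA came from whole liver homogenate, in which other cell types keep Nampt. Fewer cells of a type and less RNA per cell cannot be told apart in such samples. NAMPT is the rate-limiting enzyme of the NAD salvage pathway.

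The urea cycle turns ammonia from amino acid breakdown into urea, and the liver is its main site. N-acetylglutamate, made by NAGS, is the obligate activator of CPS1, which condenses ammonia and bicarbonate into carbamoyl phosphate. OTC joins this to ornithine to give citrulline, ASS1 and ASL convert citrulline to arginine, and ARG1 splits arginine into urea and ornithine. Urea cycle enzymes and the liver glutaminase GLS2 are concentrated in periportal hepatocytes, whereas glutamine synthetase, encoded by Glul, is confined to a thin layer around the central veins, where it captures ammonia that escaped the cycle.

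Total counts ranged from 30603080 to 43434139 per library. NAMPT LKO mouse 5 stood apart: genes of the mitochondrial genome took 21.1% of its counts, against 10.4% to 12.9% in the other libraries except WT Fasting mouse 3, at 7.42%. Across genes, the deviation of NAMPT LKO mouse 5 from the median of all other libraries, WT groups included, correlated with the GC content of the transcript. Spearman's rho was -0.58, a description over genes that are not independent replicates. The targeted gene, Nampt (ENSMUSG00000020572), was at 11.6 to 15.1 CPM in the 5 NAMPT LKO livers after TMM normalization (CPM, library-scaled counts corrected for composition). It was at 62.1, 72.3 and 139 CPM in the WT Fasting livers and at 66.8 and 76.9 CPM in the WT Refed livers. The log2 fold change of NAMPT LKO over WT Fasting livers was -2.81 (SE 0.22, adjusted p = 0.00102, edgeR's quasi-likelihood test), and the groups did not overlap.

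Compared per length, the 8 mRNAs differed widely in abundance and kept nearly the same order in every liver. In RPKM, which divides counts by exonic length and library total, Arg1 averaged 1249 over the 10 libraries, Ass1 1185, Cps1 504, Glul 252, Asl 187, Gls2 84.9, Otc 57.8 and Nags 19.1. Arg1 was above Ass1 in 6 of 10 libraries, and their ranges overlapped in all 3 groups, so this pair was not ordered beyond the spread. Gls2 was above Otc in 9 of 10 libraries, with overlap in the NAMPT LKO group only. All other neighbours in this order were separated in 10 of 10 libraries, with no overlap in any group. Arg1 ranked between 42 and 59 by RPKM among all genes, whereas Nags, the enzyme of the activator, ranked between 1749 and 3147. Together the 8 genes took 0.833% to 1.06% of all counts. The lowest count of a member was 1122, for Nags in NAMPT LKO mouse 5 (95% Poisson interval 1057 to 1190, counting error only), so counting error was small beside the differences between livers.

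The levels below are TMM-normalized CPM and are compared between livers, not between genes. Nags (ENSMUSG00000048217, chr11:102145513-102149477 of GRCm38, plus strand) was at 67.9 and 69.0 CPM in the WT Refed livers. It was at 43.5, 64.0 and 55.4 CPM in WT Fasting livers, and at 48.5, 47.3, 53.7, 55.4 and 32.7 CPM in NAMPT LKO livers. Both refed livers were above all 8 fasting livers, whereas the fasting groups overlapped. Groups did not overlap for 49.7% of all genes tested between WT Fasting and WT Refed livers. The share was 33.5% between NAMPT LKO and WT Refed livers, and none was computed for refed against all fasting livers. Nags shares 443 exonic bases with the opposite-strand gene Gm11586, but the latter held only 4 to 21 reads per library.

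Cps1 (ENSMUSG00000025991, chr1:67123026-67231259, plus strand), the first committed enzyme of the cycle, was at 2242 and 3244 CPM in WT Refed livers. WT Fasting livers held 2575, 3018 and 3176 CPM, and NAMPT LKO livers 2493, 2746, 2819.9, 2357 and 3360 CPM of Cps1. The 2 refed livers enclosed all fasting WT values, so no ordering of these groups was seen. Otc (ENSMUSG00000031173, chrX:10252305-10321024, plus strand), which forms citrulline, was at 237 and 232 CPM in WT Refed livers and at 221, 288 and 235 CPM in WT Fasting livers. In NAMPT LKO livers Otc was at 204, 221, 199.9, 288 and 344 CPM, a range that spanned both WT groups and had its highest value in mouse 5.

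Of the cytosolic enzymes, Ass1 (ENSMUSG00000076441, chr2:31470207-31520672, plus strand) was at 2251 and 2958 CPM in WT Refed livers and at 2673, 3433 and 3025 CPM in WT Fasting livers. Ass1 was at 2096, 2443, 2640.1, 3128 and 2693 CPM in NAMPT LKO livers, which overlapped both WT groups. Asl (ENSMUSG00000025533, chr5:130011258-130025132, minus strand), which releases arginine and fumarate, was at 617 and 854 CPM in WT Refed livers. WT Fasting livers held 915, 969.8 and 957 CPM of Asl, all above both refed livers, a separation seen for 24.5% of all genes tested. NAMPT LKO livers were at 787, 840.3, 887, 766 and 930.0 CPM and overlapped both WT groups. Arg1 (ENSMUSG00000019987, chr10:24915208-24927470, minus strand) was at 1499 and 1734 CPM in WT Refed livers and at 1992, 1844 and 1672 CPM in WT Fasting livers. Its values in NAMPT LKO livers were 1647, 1795, 1909, 1905 and 2539 CPM, again highest in mouse 5.

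Glul (ENSMUSG00000026473, chr1:153899944-153909723, plus strand) was at 810.3 and 779 CPM in WT Refed livers and at 728, 874 and 749 CPM in WT Fasting livers. In NAMPT LKO livers Glul was at 869.7, 859, 719.6, 922 and 1109 CPM, and the 3 groups overlapped. Gls2 (ENSMUSG00000044005, chr10:128194457-128210004, plus strand) was at 235 and 299 CPM in WT Refed livers, at 285, 325 and 313 CPM in WT Fasting livers, and at 300.4, 279.7, 328, 314 and 262 CPM in NAMPT LKO livers. Gls2 was the steadiest of the members, with a root mean square deviation of 0.14 on the log2 scale about its mean over the 10 libraries. Nags was the most variable, at 0.31, and the median over all genes tested was 0.28. Gls2 shares 97 exonic bases with opposite-strand Spryd4, which held 500 to 1091 reads, and the use of strand in counting was not given in the sources used here, so a small part of the Gls2 reads is uncertain.

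**Figure D1:**
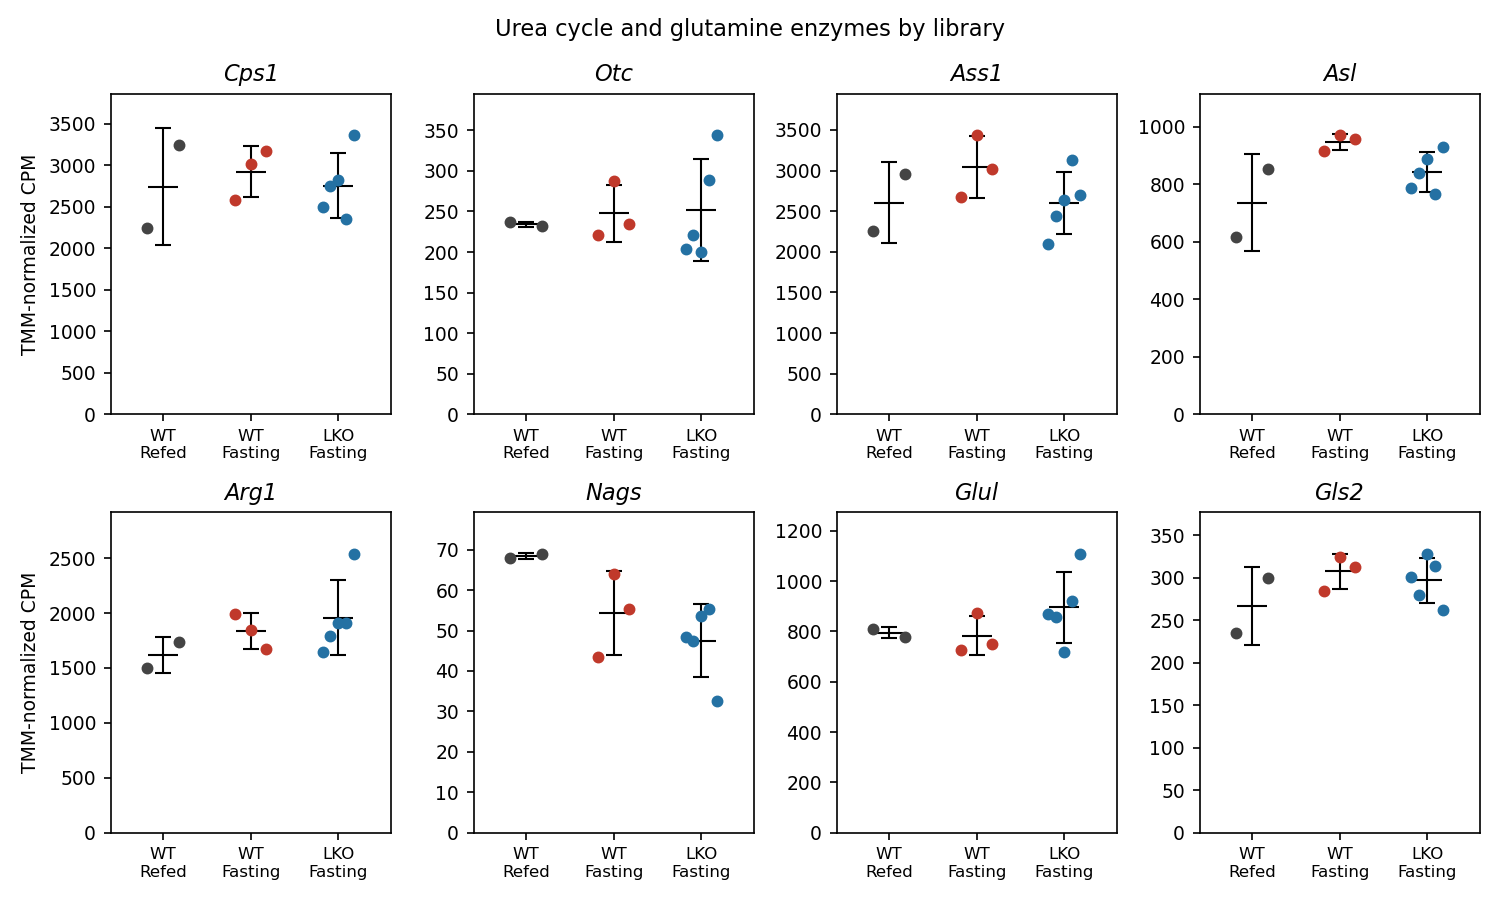
TMM-normalized CPM of the 8 enzymes (y axes, each from 0) in WT Refed (n = 2), WT Fasting (n = 3) and NAMPT LKO Fasting (n = 5) livers; points are libraries in order of mouse number, and bars are the mean and SD. The 2 refed livers lie above all others for Nags (67.9 and 69.0 CPM), and the 3 WT Fasting livers lie above both refed livers for Asl. Groups did not overlap for 49.7% of all genes tested between WT Fasting and WT Refed livers.

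The comparison of WT Fasting with WT Refed livers asks how the enzymes differ between fasting and brief refeeding when Nampt is intact. None of the 8 mRNAs was called at an adjusted p of 0.05 or less by edgeR's quasi-likelihood test, against a background of 7.04% of the 13444 genes tested. Asl had an unadjusted p under 0.05, and 22.3% of all genes did. Asl was 1.29-fold higher in WT Fasting livers (947 ± 28.7 CPM, SD, n = 3) than in WT Refed livers (735 ± 168 CPM, SD, n = 2). Its log2 fold change was 0.36 (SE 0.16, 95% interval 0.02 to 0.71, adjusted p = 0.193). Under limma's voomWithQualityWeights, which the study's methods name, the Asl log2 fold change was 0.39 with an adjusted p of 0.0460, but 3331 genes (24.8%) were called in all, whereas edgeR's exact test and DESeq2 called 0 members. Over all alternatives, the Asl value lay between 0.14 and 0.62, with adjusted p-values from 0.0460 to 0.783.

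Nags was on the other side, with a log2 fold change of -0.33 in WT Fasting over WT Refed livers (SE 0.21, 95% interval -0.80 to 0.14, adjusted p = 0.391, quasi-likelihood test). Asl and Nags were the 2 members whose groups did not overlap, 1 higher and 1 lower on fasting, while groups did not overlap for 49.7% of all genes (24.5% higher and 25.1% lower). The other urea cycle members had log2 fold changes of 0.09 for Cps1, 0.08 for Otc, 0.22 for Ass1 and 0.18 for Arg1, with adjusted p-values from 0.529 to 0.873. Glul was at -0.02 (95% interval -0.40 to 0.36) and Gls2 at 0.20 (95% interval -0.12 to 0.53). All 8 intervals lay within a log2 fold change of 1 in either direction, so larger changes were outside them, whereas smaller ones were not. The median absolute log2 fold change was 0.19 for the members and 0.27 for all genes tested. The sign for Cps1 depended on the refed libraries: its log2 fold change was -0.16 without WT Refed mouse 1 and 0.38 without WT Refed mouse 2, fits in which the lone refed library is assumed to vary like the other groups.

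The comparison of NAMPT LKO Fasting with WT Fasting livers asks whether loss of hepatocyte Nampt alters these mRNAs in the fasting liver. None of the 8 was called, and none had an unadjusted p under 0.05 or groups that did not overlap. The background was low as well: 0.00744% of genes were called, which was Nampt alone, 6.03% had an unadjusted p under 0.05, and groups did not overlap for 3.99%. Ass1 had the lowest log2 fold change, at -0.23 (SE 0.15, 95% interval -0.56 to 0.10, adjusted p = 0.839), with a mean of 2599.9 ± 377 CPM over the NAMPT LKO group (SD, n = 5) and 3044 ± 381 CPM over the WT Fasting group (SD, n = 3). Glul had the highest, at 0.19 (SE 0.14, 95% interval -0.11 to 0.50, adjusted p = 0.843).

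The values for the other members in this comparison were -0.09 for Cps1, 0.02 for Otc, -0.17 for Asl, 0.09 for Arg1, -0.19 for Nags and -0.05 for Gls2 on the log2 scale. The widest bounds over the 8 intervals were -0.57 and 0.50, so levels under 0.674-fold or over 1.41-fold of WT Fasting lay outside the intervals of all members. The edgeR exact test, DESeq2 and voomWithQualityWeights also called 0 members here. The signs for Otc and Arg1 rested on NAMPT LKO mouse 5: without it, the log2 fold changes were -0.12 and -0.02.

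**Figure D2:**
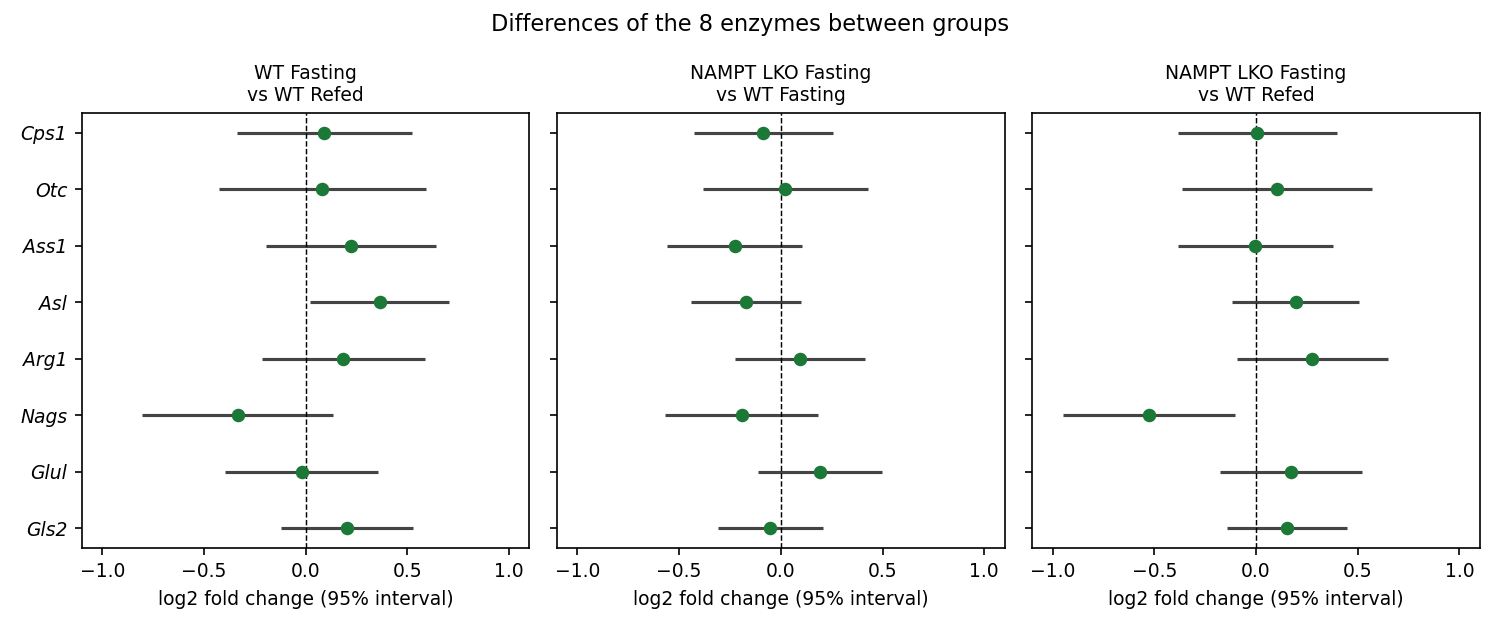
Log2 fold change of each enzyme (x axis, points) with its 95% interval (lines) from edgeR's quasi-likelihood fit of 10 libraries, for the 3 comparisons named above the panels. Intervals that leave out 0 are those of Asl in WT Fasting over WT Refed livers and of Nags in NAMPT LKO Fasting over WT Refed livers, and no adjusted p was at or under 0.05.

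NAMPT LKO Fasting livers were also compared with WT Refed livers, a comparison that shares its samples with the other comparisons and differs in both food and genotype. Again 0 of 8 members were called by the quasi-likelihood test, against 11.2% of all genes. Nags was 0.69-fold of the refed level, at 47.5 ± 8.95 CPM (SD, n = 5) against 68.4 ± 0.754 CPM (SD, n = 2). Its log2 fold change was -0.53 (SE 0.19, 95% interval -0.95 to -0.10, adjusted p = 0.107), and it was the only member with an unadjusted p under 0.05, as were 26.1% of all genes. It was also the only member whose groups did not overlap, as were 33.5% of genes (17.8% lower). Nags passed the threshold under voomWithQualityWeights (adjusted p = 0.0148, log2 fold change -0.45) and when trends of libraries with GC content were taken out (-0.50, adjusted p = 0.0227). Under these settings 31.8% and 15.6% of all genes were called. Over all alternatives the Nags value lay between -0.60 and -0.42, with adjusted p-values from 0.0148 to 0.424, and without NAMPT LKO mouse 5, which held the lowest Nags level, it was -0.42 (adjusted p = 0.0539).

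Within the NAMPT LKO group, mouse 5 held the highest level of Cps1, Otc, Asl, Arg1 and Glul and the lowest of Nags and Gls2. Relative to the mean of the other 4 NAMPT LKO livers, its log2 level was higher by 0.61 for Otc, 0.49 for Arg1, 0.40 for Glul, 0.37 for Cps1, 0.18 for Asl and 0.08 for Ass1. The same difference was -0.22 for Gls2 and -0.64 for Nags. Ordered by the GC content of their transcripts, Otc (40.2%), Cps1 (46.6%), Arg1 (48.3%) and Glul (50.4%) were the 4 members of lowest GC, whereas Nags (59.2%) was the highest. Gls2, Asl and Ass1 lay between, at 54.6% each, although their differences were -0.22, 0.18 and 0.08. The library of mouse 5 also had the highest mitochondrial share, given above, and the part of GC content or of this share in these levels was not tested. The Cps1 to Nags ratio in RPKM was 52.5 in this liver and between 16.9 and 30.3 in the other 9.

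**Figure D3:**
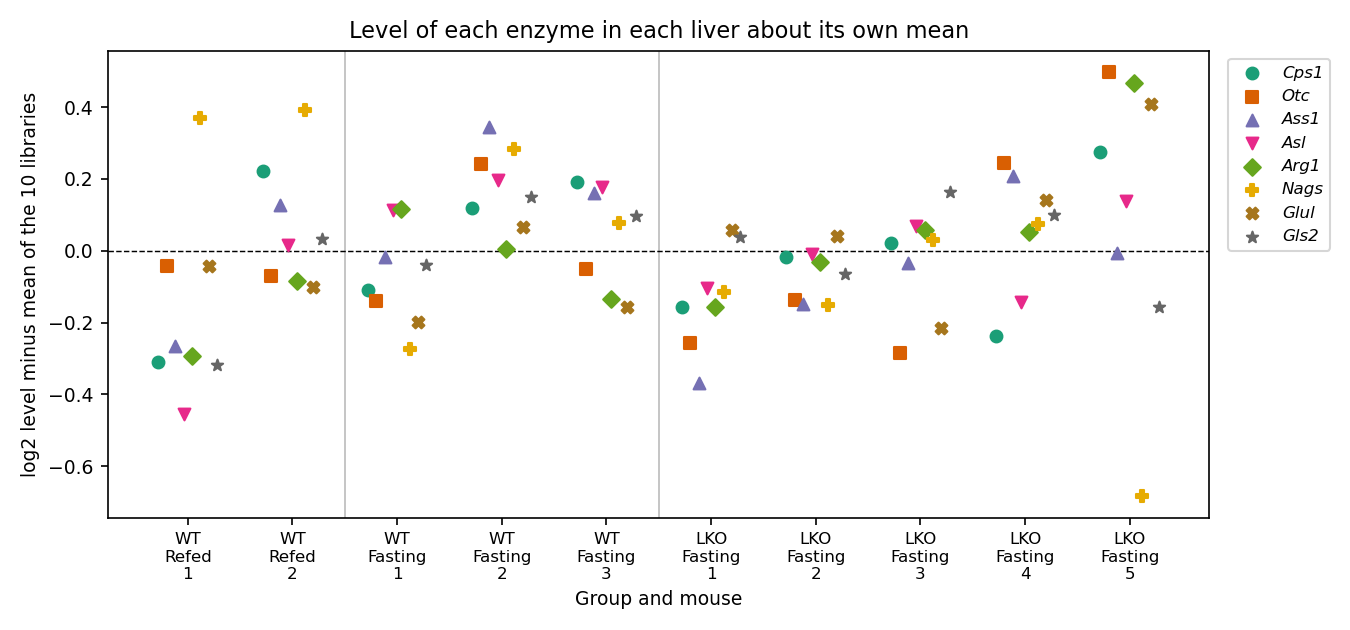
Log2 TMM-normalized CPM of each enzyme minus its own mean over the 10 libraries (y axis) in each liver (x axis, by group and mouse number). In NAMPT LKO mouse 5, Otc, Arg1, Glul and Cps1 lie at the top and Nags at the bottom, a separation larger than in any other liver.

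Profiles of the members over the 10 libraries were compared by the root mean square difference of log2 levels, each centred on its own mean. Among the members, Cps1 and Asl were closest (0.12), followed by Otc and Glul (0.14). Over all genes tested, Gls2 was nearest to Amdhd1 (0.07), Zfp622 (0.07) and Acad10 (0.09). The nearest profiles to Glul were those of Cat (0.08), Suclg2 (0.08) and Stk38 (0.08), and for Arg1 they were Tlk2 (0.06), Arl8b (0.07) and Ybx1 (0.07). Otc was nearest to Eri2, Atp5j and F11 (0.09 each). Ass1 was nearest to Pxmp2 (0.11), Firre (0.12) and Gnmt (0.12), Asl to Phf21a (0.10), Akap8l (0.10) and Afdn (0.10), and Nags to Epha1 (0.09), Zfp768 (0.10) and Trim8 (0.10). The median over all genes was between 0.31 and 0.41 for the 8 members. These are descriptions over libraries that include NAMPT LKO mouse 5, which holds the highest or lowest value of 5 of the 8 members.

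Genes around the cycle were read from 4 lists, which were chosen with earlier results of these data known. Of 13 tested urea cycle partners (carriers of cycle intermediates and modifiers of its enzymes), 3 were called higher and 0 lower in WT Fasting than in WT Refed livers, where 2.68% of all genes were called higher and 4.36% lower. The list's median log2 fold change was 0.28, against 0.04 for all genes. The 3 genes were called by edgeR's exact test and DESeq2 as well. Slc7a2, a cationic amino acid transporter that carries arginine and ornithine, was at 638, 569.6 and 748 CPM in WT Fasting livers and at 174 and 205 CPM in WT Refed livers. Its log2 fold change was 1.78 (SE 0.26, adjusted p = 0.00341, quasi-likelihood test). Slc25a22, a mitochondrial glutamate carrier, rose by 1.30 on the same scale (SE 0.23, adjusted p = 0.00817), and Clpx, a subunit of a mitochondrial protease, by 1.04 (SE 0.21, adjusted p = 0.0150). The ornithine carrier Slc25a15 was at 0.07 on this scale (adjusted p = 0.820), and Slc25a13, which exchanges aspartate for glutamate, was at 0.09 (adjusted p = 0.750).

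Enzymes that release ammonia or pass on amino groups formed the second list, in which 0 of 17 genes were called higher and 1 lower (median log2 fold change 0.23). At an unadjusted p under 0.05 there were 7 genes, against 22.3% of all genes. EdgeR's exact test called 2 higher and 1 lower, DESeq2 4 higher and 1 lower, and voomWithQualityWeights 5 higher and 2 lower. These tools called 8.91%, 12.2% and 24.8% of all genes in either direction. The gene called lower by the quasi-likelihood test was Ampd2, an AMP deaminase, at 14.8, 15.3 and 18.5 CPM in WT Fasting and 34.8 and 34.9 CPM in WT Refed livers (log2 fold change -1.11, SE 0.20, adjusted p = 0.00990). Sds, the serine dehydratase, and Got1, the cytosolic aspartate aminotransferase, had log2 fold changes of 1.03 and 1.04 without being called by the quasi-likelihood test (adjusted p = 0.0527 and 0.0858). They were chosen after their values were seen and were called by the other 3 tools. Glud1, the glutamate dehydrogenase, was at -0.14 (adjusted p = 0.598).

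Of 16 tested genes of glutamine transport and use, 2 were called higher and 4 lower (median log2 fold change 0.01). The 2 called higher, Slc38a2 and Slc38a4, encode amino acid transporters, and the 4 called lower, Gfpt1, Cad, Ctps and Gmps, encode enzymes that consume glutamine. Other transporters and enzymes of these kinds in the list were not called by the quasi-likelihood test. The log2 fold change was 0.31 for Slc38a1, 0.0065 for Slc38a3, 0.37 for Slc1a5, 0.26 for Slc1a2 and -0.86 for Slc1a4 (adjusted p-values from 0.133 to 0.987). It was -0.68 for Ppat, -0.32 for Pfas, 0.0057 for Asns and 0.23 for Nadsyn1 (adjusted p-values from 0.0942 to 0.996). EdgeR's exact test called 2 higher and 4 lower, DESeq2 2 higher and 5 lower, and voomWithQualityWeights 2 higher and 6 lower. Ppat was called by DESeq2 and voomWithQualityWeights, and Slc1a4 by voomWithQualityWeights only. Slc38a2 was at 153, 126 and 157 CPM in WT Fasting livers and at 62.0 and 52.2 CPM in WT Refed livers (log2 fold change 1.35, SE 0.15, adjusted p = 0.000984). Slc38a4 was at 1035, 1086 and 961 CPM against 673 and 608 CPM (log2 fold change 0.68, SE 0.13, adjusted p = 0.0105). Both WT groups were clear of each other for these transporters.

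Gfpt1, the first enzyme of hexosamine synthesis, was at 23.5 ± 2.18 CPM (SD, n = 3) in WT Fasting livers and at 65.6 and 64.0 CPM in WT Refed livers (log2 fold change -1.46, SE 0.15, adjusted p = 0.000576). Cad, which uses glutamine to make a cytosolic pool of carbamoyl phosphate for pyrimidines, was at 6.92, 6.63 and 9.54 CPM against 22.1 and 25.7 CPM (log2 fold change -1.63, SE 0.29, adjusted p = 0.00849). Ctps, which makes CTP, fell by 1.28 (SE 0.28, adjusted p = 0.0201), and Gmps, which makes GMP, fell by 0.60 (SE 0.14, adjusted p = 0.0282). The last 2 were past the limit of the rule for named genes and are given so that the count is complete.

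**Figure D4:**
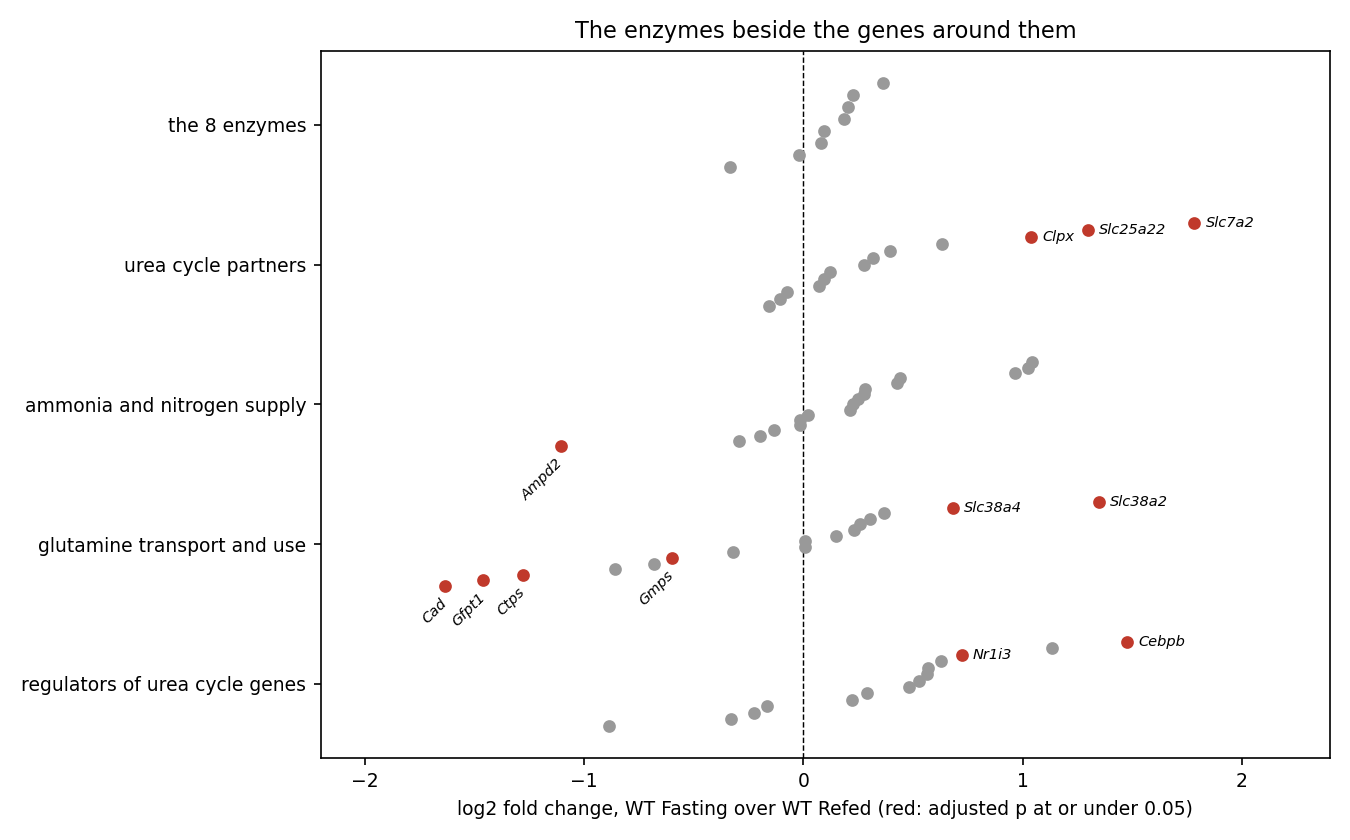
Log2 fold change of WT Fasting over WT Refed livers (x axis) for the 8 enzymes and the tested genes of 4 lists (rows; height within a row only separates the points). Red points with names have an adjusted p at or under 0.05 from edgeR's quasi-likelihood test; there are 0 among the 8 enzymes, 3 of 13, 1 of 17, 6 of 16 and 2 of 14 in the lists.

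Among 14 regulators of urea cycle genes, 2 were called higher and 0 lower on fasting, with a median log2 fold change of 0.50. At an unadjusted p under 0.05 there were 7, and the other tools called 3 to 7 higher and 0 to 2 lower. The regulators called lower were Cebpa, by DESeq2 and voomWithQualityWeights, and Hnf4a, by voomWithQualityWeights only. Their log2 fold changes were -0.89 and -0.33 (adjusted p = 0.117 and 0.332, quasi-likelihood test). Cebpb, a transcription factor of the fasting and acute phase responses, was at 181, 205 and 159.6 CPM in WT Fasting and at 68.8 and 62.0 CPM in WT Refed livers (log2 fold change 1.48, SE 0.31, adjusted p = 0.0168). Nr1i3, the nuclear receptor CAR, was higher by 0.72 (SE 0.18, adjusted p = 0.0392), a call that was lost in 7 alternatives, among them scaling by library size only (adjusted p = 0.0964). With 1 refed library left, fewer genes were called overall (189 without WT Refed mouse 1 and 106 without WT Refed mouse 2, against 946). Slc38a2 and Gfpt1 were called in both of these fits and Slc7a2 only without WT Refed mouse 2 (adjusted p = 0.0551 without WT Refed mouse 1). The remaining called genes of the 4 lists (Slc25a22, Clpx, Ampd2, Cad, Slc38a4, Ctps, Gmps, Cebpb and Nr1i3) were called in neither. Clpx and Gmps were also lost without WT Fasting mouse 1 (adjusted p = 0.05004 and 0.0503), Cebpb without WT Fasting mouse 2 (adjusted p = 0.0535), and Gmps without WT Fasting mouse 2 (0.0803), without WT Fasting mouse 3 (0.0734) and after the GC trend was removed (0.0551).

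In NAMPT LKO against WT Fasting livers, 0 genes of these 4 lists were called in either direction by the quasi-likelihood test, edgeR's exact test, DESeq2 or voomWithQualityWeights. At an unadjusted p under 0.05 there were 0 of 13 partners, 2 of 17 ammonia genes, 1 of 16 glutamine genes and 1 of 14 regulators. Slc38a2 had the lowest p of the glutamine list: it was at 119, 125, 97.8, 110.4 and 106 CPM in the 5 NAMPT LKO livers, all below the 3 WT Fasting livers. Its log2 fold change was -0.38 (SE 0.12, 95% interval -0.63 to -0.12, adjusted p = 0.761). The median log2 fold changes of the lists lay between -0.12 and 0.02, against 0.00024 for all genes. The members' own median was -0.07.

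Promoter sequences from RefSeq (GRCm38.p6, 250 bases before to 50 after the start site) were at hand for 4 of the 8 members, Nags, Ass1, Otc and Glul. They were searched on both strands for the letters TGACG, the core of the cyclic AMP response element, since glucagon acts on urea cycle genes through cyclic AMP. These letters stood in 20.8% of 32851 such windows, and the core is part of the full element TGACGTCA, found in 1.79%. The full element stood in none of the 4 member windows and in none of those of the named genes searched. The site in Nags, the only one among the 4 members, and those in Slc38a2 and Cad, as examples among the named genes called between WT Fasting and WT Refed livers, are shown 5′ to 3′ with the letters in capitals (CGTCA is TGACG on the other strand). Of the named genes called higher on fasting, 7 had a window, and 4 of them held the letters (Cebpb, Pck1, Slc38a2 and Slc38a4, the last in 1 of its 3 windows). Of those called lower, Ampd2, Gfpt1 and Cad were searched, all 3 had a window, and only Cad held the letters. Ctps and Gmps were not searched. The Nags stretch (chr11:102145533-102145562, plus strand) lies after the start site, with the match 31 bases from it. The stretches of Slc38a2 (chr15:96699729-96699828, minus strand) and Cad (chr5:31054680-31054779, plus strand) are the 100 bases before the start site, with matches 27 bases before it in Slc38a2 and 49 and 28 bases before it in Cad.
Nags: tccagagcgacCGTCAcctgtgggtggggg
Slc38a2: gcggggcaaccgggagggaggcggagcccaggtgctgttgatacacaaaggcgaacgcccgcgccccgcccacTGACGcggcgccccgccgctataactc
Cad: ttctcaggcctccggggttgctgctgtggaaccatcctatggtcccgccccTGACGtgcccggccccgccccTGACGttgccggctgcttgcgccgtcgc
A match describes these letters only. The letters of the C/EBP (TTGCNNAA), forkhead (GTAAACA) and HNF4 (CAAAGTCCA) motifs, found in 10.8%, 3.65% and 0.475% of all windows, were in none of the 4 member windows.

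Zonal markers were followed because the members differ in their zone of the liver lobule. Of 10 periportal markers, 1 was called higher in WT Fasting than in WT Refed livers: Pck1, a key enzyme of gluconeogenesis, at 4565, 3816 and 4199 CPM against 1622 and 1545 CPM (log2 fold change 1.41, SE 0.17, adjusted p = 0.00138). At an unadjusted p under 0.05 there were 3 periportal markers, against 22.3% of all genes. Besides Pck1, edgeR's exact test called Sds higher, and DESeq2 and voomWithQualityWeights called Sds and Pigr higher. Of 13 tested pericentral markers, which include Glul, 0 were called in that comparison, with 3 at an unadjusted p under 0.05; DESeq2 called 2 lower (Cyp2c29 and Rnf43), and voomWithQualityWeights 3 lower and 1 higher. In NAMPT LKO against WT Fasting livers, 0 zonal markers were called by any of the 4 tools, and 1 pericentral marker had an unadjusted p under 0.05. Hepatocyte markers such as Alb and Apoa1 were high in every library. Their summed level was 71126 to 102519 CPM by library total, without TMM normalization.

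Summed markers of bile duct cells were higher in the 5 NAMPT LKO livers than in the other 5 livers. All marker sums are CPM by library total without TMM normalization, whereas levels of single genes are TMM-normalized. The summed level of the 5 cholangiocyte markers (Krt19, Krt7, Epcam, Spp1 and Sox9), all detected, was 34.6 to 51.0 CPM in NAMPT LKO livers, 15.2 to 21.2 CPM in WT Fasting livers and 20.7 to 23.1 CPM in WT Refed livers. Most of the sum in NAMPT LKO livers came from Spp1, whereas Krt19, Krt7 and Epcam reached at most 1.82, 1.36 and 2.83 CPM there. Over WT Refed livers, the quasi-likelihood test called Spp1 and Epcam higher (adjusted p = 0.00427 and 0.04002). Krt19, Krt7 and Sox9 were not called in that comparison (adjusted p = 0.361, 0.437 and 0.4601), and the groups overlapped for Krt19 and Krt7. Of these 5 markers, 4 had an unadjusted p under 0.05 in NAMPT LKO against WT Fasting livers, and 0 were called by the quasi-likelihood test or voomWithQualityWeights, whereas edgeR's exact test and DESeq2 each called 3 (Krt19, Krt7 and Spp1), where each called 0.179% of all genes. Spp1, a secreted phosphoprotein, was at 19.1 to 37.3 CPM in NAMPT LKO and at 8.55, 11.3 and 8.93 CPM in WT Fasting livers (log2 fold change 1.64, SE 0.22, adjusted p = 0.0603). It was called in 7 alternatives, among them DESeq2 (adjusted p = 1.15e-09) and edgeR's exact test (adjusted p = 5.73e-08). The summed level of 6 stellate markers was 204 to 292 CPM in NAMPT LKO and 179.7 to 231 CPM in WT Fasting livers, most of it from Dcn, at a mean of 169 and 141 CPM. Of these 6 markers, 2 collagen genes, Col1a1 and Col3a1, had an unadjusted p under 0.05, and 0 were called by the quasi-likelihood test. Col1a1 was at 1.98 to 8.47 CPM in NAMPT LKO livers and at 1.44, 1.65 and 1.23 CPM in WT Fasting livers, and the groups did not overlap. Its log2 fold change was 1.79 (SE 0.47, adjusted p = 0.761), and it was called by DESeq2 (adjusted p = 0.0376). Col3a1 was at 0.90 on this scale (SE 0.25, adjusted p = 0.761). The summed level of 10 macrophage and immune markers was 189 to 384 CPM in NAMPT LKO and 227 to 465 CPM in WT Fasting livers. The part of these cells in the levels of the 8 enzymes was not tested. Of 7 pancreas and adipose markers, Cpa1 and Prss2 were at 0 in all libraries and 4 others were under 1 CPM by library total. The remaining marker, Cela1, was at 3.57 to 5.27 CPM in NAMPT LKO, 6.39 to 6.54 CPM in WT Fasting and 6.55 to 7.07 CPM in WT Refed livers. By the quasi-likelihood test, its log2 fold change in NAMPT LKO livers was -0.59 over WT Fasting (SE 0.16, adjusted p = 0.761). Over WT Refed livers it was -0.66 (adjusted p = 0.0363), a comparison in which 11.2% of all genes were called.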

How the data were processed

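Liver RNA from 10 mice was profiled by RNA-seq. The authors selected polyadenylated RNA, mapped single reads to GRCm38 and tallied reads with a unique alignment on each Ensembl gene; the submitters' processing notes name STAR 2.5.1a and featureCounts 1.4.6-p5. The deposited counts were used for all tests. The deposited CPM values scale these counts by library total and the deposited RPKM values further divide by exonic length; both were recomputed from the counts and matched. Use of strand in counting is not given in the sources used here. Symbols were matched for 40254 of 41388 gene IDs, and coordinates come from the GENCODE annotation of GRCm38.

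After genes at or under 1 CPM in every library and rRNA genes were dropped, 13444 genes were tested with edgeR 4.0.16 in R 4.3.3: TMM normalization, quasi-likelihood test, a single fit of the 10 libraries with a mean for each group, Benjamini-Hochberg adjustment over all genes, called at an adjusted p of 0.05 or less. The SE is the log2 fold change divided by the square root of F, and 95% intervals use the fit's degrees of freedom. The alternatives were limma 3.58.1, DESeq2 1.42.0, edgeR's exact test, other normalizations, filters and samples, a fit blocked on the replicate number, and fits without each library. The model fits were run on simulated counts for WT Fasting over WT Refed and NAMPT LKO over WT Fasting livers. This used the quasi-likelihood test, edgeR's exact test, voomWithQualityWeights and DESeq2. Apart from the changes put in, all simulated libraries shared a mean profile, so none carried the GC trend of NAMPT LKO mouse 5. The outcome is not reported here. No pair of replicates held identical counts or differed by less than sampling noise. The labels do not say more of how samples were taken, so p-values measure only the spread between these samples.

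The members and lists were chosen with earlier results of these data known. Named genes were all members, Nampt, up to 4 called genes of lowest p per list and comparison (otherwise the gene of lowest p), and the 3 profiles nearest to each member. The nearest profiles to Cps1 are not reported here. Not every marker that this rule selects is reported. Other lists were endothelial and blood cell markers, of which 0 of 6 and 0 of 5 were called in both comparisons with WT Fasting livers. The smallest group held 2 libraries, and depth was 30603080 to 43434139 counts per library.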

Additional observations from a re-analysis of the deposited data

Results flagged for a closer look

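In the 5 NAMPT LKO Fasting livers, 25 values (levels and ratios of the enzymes and of the list genes) were examined for a single liver far from the rest, by Dixon's gap ratio at its limit of 0.71 for 5 samples. Chance flags about 1 in 20 such groups, so 1.25 of 25 would be flagged on average, and 2 were. The Cps1 to Nags ratio in RPKM was 52.5 in NAMPT LKO mouse 5 and 21.8 to 29.6 in the other 4 (gap ratio 0.743). This is the liver with the highest mitochondrial share of counts. The Ass1 to Asl ratio was 8.08 in NAMPT LKO mouse 4 and 5.27 to 5.89 in the other 4 (gap ratio 0.780). Ass1 and Asl have transcripts of the same GC content (54.6% each), and the ratio was 6.85 and 7.22 in the WT Refed livers and 5.78 to 7.002 in the WT Fasting livers.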

How the results depend on the processing

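Calls of the 8 enzymes changed in 3 cases: 1 member (Asl) was called in WT Fasting over WT Refed livers under voomWithQualityWeights, and 1 (Nags) in NAMPT LKO Fasting over WT Refed livers under voomWithQualityWeights and after the GC trend was removed. No other setting run called a member, and the cause was not tested. Of the recomputed log2 fold changes of members, 346 kept their sign and side of the threshold, 3 passed it and 24 changed sign. In WT Fasting over WT Refed livers, Glul turned to 0.021 under voomWithQualityWeights and to 0.011 with NAMPT LKO mouse 5 and WT Fasting mouse 3 both left out, a setting chosen after seeing the data, in which Nampt was at -0.097. In NAMPT LKO over WT Fasting livers, Otc turned to -0.173 and Arg1 to -0.027 under voomWithQualityWeights, Otc to -0.025 with library size only, Otc to -0.104 and Gls2 to 0.026 after the GC trend was removed, and Otc to -0.153, Arg1 to -0.078 and Gls2 to 0.0057 without those 2 livers. Leaving out each library in turn gave, in WT Fasting over WT Refed livers, -0.155 to 0.379 for Cps1, -0.040 to 0.155 for Otc, -0.106 to 0.028 for Glul and -0.101 to 0.555 for Nampt, and in NAMPT LKO over WT Fasting livers -0.119 to 0.142 for Otc and -0.018 to 0.164 for Arg1. Of the named list genes, 304 recomputed values kept their call, 30 lost it and 8 gained it. With library size only, the median log2 fold change of all genes was -0.02, -0.03 and -0.06 in the 3 comparisons, against 0.04, 0.00024 and 0.03 with TMM.

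Libraries numbered 1 to 3 of the fasting groups share only a number: the correlations of same-numbered deviations from the group means were 0.104, 0.078 and 0.097, although each library correlated best with its own number, a hint from the data and not from the design. With the replicate block over these 6 libraries, 0 members and 0 of all genes were called, as without it (875 and 822 genes at an unadjusted p under 0.05). Otc was at -0.242 with the replicate block and -0.250 without it, Arg1 at -0.040 and -0.041, and Nampt at -2.78 (adjusted p = 0.106) and -2.87 (adjusted p = 0.269). The WT Refed libraries carry no such number to pair on. The number of genes called in WT Fasting over WT Refed livers was 946, and ranged from 106 without WT Refed mouse 2 to 3331 under voomWithQualityWeights.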
